A study of Mus musculus with 24 samples.

Results

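The genes described here are 34 genes of macrophage identity and state, measured in the mouse aorta during a short challenge that is used to bring on aortic dissection. They were chosen by name: 33 are named as such in the array files, and Spi1 was found through its transcript accession under an older name. All 34 passed the filter on dim probes and were tested among 23503 genes, each by its brightest probe. They fall into 10 genes of the macrophage lineage, 5 resident-type genes, the 3 chains of complement C1q, 4 phagocytic and lysosomal genes, 10 recruited or activated-type genes and 2 genes of antigen presentation.

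Macrophages live in the adventitia of the healthy aorta, where a long-lived population carries scavenger receptors and the hyaluronan receptor Lyve1. When the vessel wall is injured, monocytes enter from the blood, mature into macrophages and switch on receptors for microbial and damage signals, together with enzymes such as arginase. The lineage genes are shared by both populations, so the resident-type and the recruited or activated-type genes are the ones that tell them apart by convention.

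Each of 24 one-colour arrays held RNA of an aorta, with 3 biological replicates in each of 8 groups. The labels give C57BL/6 as the strain of both genotypes, wild type and IL-17 Knockout, and all mice were fed normal chow. Within each genotype, controls drank plain water and received vehicle, salt mice drank 1% NaCl and received vehicle, and both other groups were infused for 3 days with BAPN and angiotensin II, without or with the salt water. BAPN blocks lysyl oxidase enzymes, and with them the crosslinking of elastin and collagen, and angiotensin II raises blood pressure; the sample labels name BAPN alone, and the series' design names both. The salt water was given before and during the infusion. Age, sex and the form of interleukin 17 deleted are not given in the sources used here, and Il17a and Il17f were well above background on 0 of 24 arrays, wild-type arrays included, so their probes check nothing about the genotype labels. The study's question was whether high salt worsens the disease through interleukin 17.

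A level below is the log2 processed signal of a probe minus the array's 75th percentile, so that 0 is the array's 75th percentile. Levels of different genes come from different probes and are not compared with each other. In RNA of a whole vessel, fewer cells of a type and less RNA per cell cannot be told apart. A gene is called where the adjusted p of limma's moderated test, adjusted over all 23503 genes, is under 0.05. The arrays' number limits the precision, between 51.1% and 60.8% of spots were well above background, and no spot was saturated.

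The arrays were hybridised on 4 slides, and no slide held both genotypes, so genotype and slide cannot be told apart. Infusion against control in the wild type, and infusion on salt water in the knockout, were compared wholly between slides. Array 3 of the infusion group without salt stood near its controls in both genotypes. Of the 25 members called higher by infusion in the wild type on plain water, 24 were lowest on infusion array 3, against 83.2% of all genes called higher; in the knockout the same held for 21 of 22 members, against 71.2% of such genes. The median change of those members from the control mean was 1.71, 1.92 and 0.45 on wild-type infusion arrays 1, 2 and 3, and 2.14, 1.81 and 0.60 on knockout infusion arrays 1, 2 and 3. Counts are therefore given with and without these arrays.

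The promoters of members that the results turn on are shown because many of them share a short word of the site bound by PU.1, the product of Spi1 and a master regulator of macrophage genes. GAGGAA, or TTCCTC on the other strand, the core of that site, was searched in the RefSeq promoter windows of GRCm38.p6, which run from 250 bases before to 50 after a transcript's start. A window was found for 20 of the 34 members. The word stood in 12 of these 20 (60%), against 31.3% of 27025 genes with a window. Within the 100 bases before the start it stood in 8 of 20 (40%), against 11.2% of genes. A match is a description of the letters and not of binding. The 100 bases before the start are printed 5′ to 3′ on the gene's strand, with matches in capitals, for genes that rose under infusion and hold the word:
Mrc1 (chr2:14229314-14229413, plus strand): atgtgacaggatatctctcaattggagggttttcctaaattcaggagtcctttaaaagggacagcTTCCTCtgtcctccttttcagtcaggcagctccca
Trem2 (chr17:48346301-48346400, plus strand): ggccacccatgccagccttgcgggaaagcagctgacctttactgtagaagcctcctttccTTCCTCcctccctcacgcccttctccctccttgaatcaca
C1qb (chr4:136886201-136886300, minus strand): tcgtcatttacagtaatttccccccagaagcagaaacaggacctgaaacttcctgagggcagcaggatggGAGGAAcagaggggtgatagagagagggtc
Fcgr1 (chr3:96293970-96294069, minus strand): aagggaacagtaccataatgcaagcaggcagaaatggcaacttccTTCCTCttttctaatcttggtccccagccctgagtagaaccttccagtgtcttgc
Clec4e (chr6:123289872-123289971, minus strand): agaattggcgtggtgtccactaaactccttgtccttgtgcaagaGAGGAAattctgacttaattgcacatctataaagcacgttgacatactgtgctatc
Fcgr3 (chr1:171059404-171059503, minus strand): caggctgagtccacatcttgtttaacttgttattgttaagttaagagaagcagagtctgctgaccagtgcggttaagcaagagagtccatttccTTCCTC
These genes span the roles: a resident-type receptor, a lipid-sensing phagocytic receptor, a complement chain, both Fc receptors and an activated-type lectin. The next 4 are from the 5 members with a window that were called higher in no infusion comparison. The word is missing from the windows of Timd4, Gpnmb and Cd163 and stands in those of Itgam, at 3 places, and of Clec7a, at 1 place within the same 100 bases (not printed):
Timd4 (chr11:46810699-46810798, plus strand): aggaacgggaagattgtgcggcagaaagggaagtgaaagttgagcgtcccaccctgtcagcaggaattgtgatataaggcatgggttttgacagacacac
Gpnmb (chr6:49036418-49036517, plus strand): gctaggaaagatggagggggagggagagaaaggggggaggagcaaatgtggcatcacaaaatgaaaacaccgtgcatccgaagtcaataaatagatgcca
Cd163 (chr6:124304551-124304650, plus strand): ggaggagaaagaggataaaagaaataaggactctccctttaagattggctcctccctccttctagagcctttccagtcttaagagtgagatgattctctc
Itgam (chr7:128062540-128062639, plus strand): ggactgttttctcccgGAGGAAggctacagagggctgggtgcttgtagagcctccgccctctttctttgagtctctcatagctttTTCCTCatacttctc
The windows of Folr2, Lyz1, Lyz2, Lgals3 and Fcer1g also lack it, although Lgals3, Lyz1 and Fcer1g rose in each of the 4 infusion comparisons. The word stood in 10 of the 15 members with a window that were called higher in at least 1 infusion comparison and in 2 of the 5 that were called higher in none.

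Most of the 34 genes were higher under infusion in each genotype, on plain and on salt water. In the wild type on plain water 25 members rose and 1 fell, where 25.9% of all genes were called (12.2% higher and 13.7% lower). On salt water in the wild type 21 rose and 1 fell, against 32.9% of all genes (16.3% higher, 16.6% lower). In the knockout on plain water 22 rose and 1 fell, against 30.6% (14.3% higher, 16.4% lower), and in the knockout on salt water 19 rose and 1 fell, against 25.3% (13.3% higher, 12% lower). The members' median log2 change was 1.22, 0.96, 1.11 and 0.88 in that order, where the median of all genes tested lay between -0.05 and -0.02. With genes at their lower bounds, where a group was below background, the second median is 0.94 and the others are as given. These 4 comparisons share no arrays. Across them 18 members (52.9%) rose in all 4, where 6.53% of all genes did, and 6 members were called in none. Arg1, Clec4e and Spi1 passed the filter on dim probes only through infusion groups, on whose arrays they are high, so their place in these counts is no support. Among the other 31 members 22, 19, 19 and 17 rose and 1 fell in each comparison, and 16 rose in all 4.

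Some markers of the cells that make up the wall moved as well. Of 6 smooth muscle genes 0 rose and 1, 0, 3 and 1 fell in the 4 comparisons. Of all genes 13.7%, 16.6%, 16.4% and 12% were called lower in that order. The wild-type counts and the knockout salt-water count thus lie near or below the share of all genes. Myh11, smooth muscle myosin, changed by -0.83, -0.96, -1.29 and -1.24, called in the knockout. The mean level of the 6 ran from 7.35 to 7.61 in wild-type controls and 7.44 to 7.55 on salt, against 6.78 to 7.27 under infusion and 6.79 to 7.40 under salt with infusion. In the knockout it ran from 6.99 to 7.15 and 6.94 to 7.11, against 6.04 to 7.04 and 6.19 to 6.60. Infusion array 3 was again the one nearest the controls in both genotypes, at 7.27 and 7.04. Of 3 fibroblast genes 0 rose and 1, 2, 2 and 2 fell. Dcn, decorin, changed by -0.66, -1.09, -0.51 and -0.84. Pdgfra, a receptor of mesenchymal cells, changed by -0.26, -0.88, -0.71 and -0.66, the first of these without a call. Lum, the third, was called in none and changed the other way except in the knockout on salt water. The mean level of the 3 ran from 5.10 to 5.38 in wild-type controls and 5.33 to 5.42 on salt. Under infusion it ran from 5.01 to 5.33 and, with salt, from 4.49 to 4.99. In the knockout it ran from 5.55 to 5.81, 5.64 to 5.82, 5.10 to 5.77 and 0.87 to 5.41 in that order. The 0.87 was salt-with-infusion array 3, where Lum was not well above background. The part of these cells in the rise of the members was not tested.

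These counts depended on slide, the first of them most. With slide as a fixed block, 0 members and 261 genes were called for infusion in the wild type on plain water. There 3957 genes had an unadjusted p under 0.05. In the other 3 comparisons 18, 26 and 25 members were called. The block rests on a single array in each genotype. Knockout infusion array 3 is the only one of its group on the slide of the salt-with-infusion arrays. Wild-type salt-with-infusion array 3 is the only one of its group on the slide of the infusion arrays. The blocked counts for the comparisons made wholly between slides, 0 and 25, therefore depend on those arrays. With slide as a random block the 4 counts were 1, 22, 24 and 24. On the arrays of a single slide, 19 members were called in the wild type on salt water and 29 in the knockout on plain water. Without infusion array 3 of both genotypes the 4 counts were 30, 27, 28 and 22. Leaving out single arrays moved the wild-type plain-water count from 26 to between 10 and 29, with 11 without control array 1, 13 without infusion array 1 and 10 without infusion array 2. For the wild type on salt water it was 13 to 25 (13 without salt array 3 or salt-with-infusion array 3, 14 without salt-with-infusion array 1). For the knockout on plain water it was 12 to 26 (12 without infusion array 1), and on salt water 10 to 17 (10 without salt array 1, 13 without salt-with-infusion array 3).

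**Figure D1:**
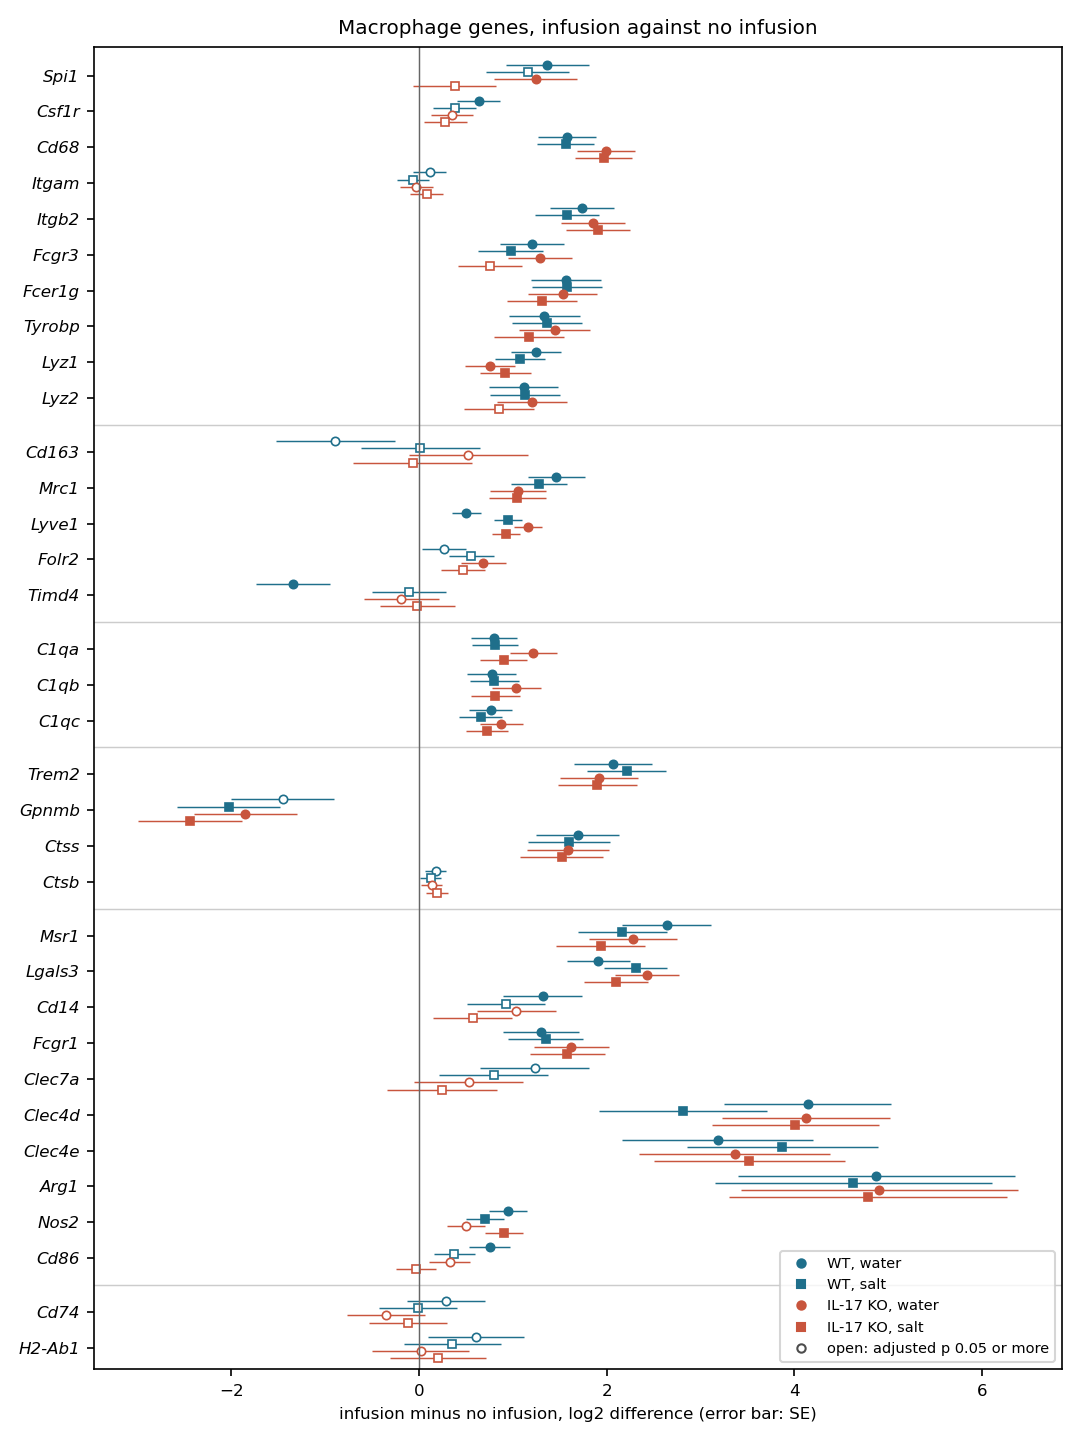
Log2 difference between infusion and no infusion for the 34 genes (horizontal axis, bars are SE), grouped by role from the lineage genes at the top to antigen presentation at the bottom; circles are plain water, squares salt water, blue wild type, red IL-17 knockout, and filled symbols have an adjusted p under 0.05. Arg1, Clec4d and Clec4e lie farthest to the right in all 4 comparisons as plotted. Arg1 and Clec4e passed the filter on dim probes only through infusion groups. Their symbols are fitted differences against signal mostly below background, not lower bounds, so their places are no support. Gpnmb lies left of 0, and Timd4 lies left of 0 with a filled symbol for the wild type on plain water alone.

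The recruited or activated-type genes held the largest changes. Of these 10 genes 9, 7, 6 and 7 rose in the wild type on plain and salt water and in the knockout on plain and salt water, with median log2 changes of 1.62, 1.76, 1.95 and 1.76, and 0 fell. Without Arg1 and Clec4e, which passed the filter through infusion groups alone, 7, 5, 4 and 5 of 8 rose, with medians of 1.31, 1.14, 1.33 and 1.24. Arg1, arginase 1, which turns arginine into ornithine and marks repair-type macrophages, read -6.80, -6.91 and -5.85 in controls, -6.92, -5.66 and -6.71 on salt, 0.40, 1.33 and -6.68 under infusion and -1.96, -3.25 and -0.19 under salt with infusion in the wild type. Knockout levels of Arg1 were -6.43, -6.66 and -5.05 in controls, -5.54, -4.74 and -6.37 on salt, 1.74, -2.44 and -2.72 under infusion and -1.15, -0.90 and -0.24 under salt with infusion. Arg1 thus rose from below background to well above it, except on wild-type infusion array 3, which lay among the controls. The fitted log2 differences, 4.87, 4.63, 4.91 and 4.79 (SE 1.48, adjusted p = 0.0216, 0.023, 0.0175 and 0.0241), are against a signal below background. Because Arg1 was not well above background in the 4 groups without infusion, on 0 of their 12 arrays, its increase is given as a lower bound, at least 7.09-fold and 7.09-fold higher in the wild type and at least 10.7-fold and 12.9-fold higher in the knockout. Without infusion array 3 of both genotypes the plain-water changes were 7.39 in the wild type and 5.70 in the knockout. The wild-type plain-water call was lost without control array 1 or 2 or infusion array 1 or 2, the wild-type salt-water call without salt array 1 or 3 or salt-with-infusion array 1 or 3, and the knockout calls without control array 1 or 2 or infusion array 1 on plain water and salt array 1 or 3 or salt-with-infusion array 1 or 3 on salt water.

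Clec4d and Clec4e encode paired C-type lectins, MCL and Mincle, that signal through Fcer1g on sensing microbial glycolipids and dying cells. Clec4d read -4.39, -3.88 and -3.29 in controls, -3.42, -2.71 and -3.10 on salt, 1.35, 2.18 and -2.66 under infusion and -0.27, -1.27 and 0.75 under salt with infusion in the wild type. Knockout levels of Clec4d were -4.0, -3.88 and -3.88 in controls, -4.69, -3.95 and -3.97 on salt, 2.0, -0.27 and -1.10 under infusion and -0.02, -0.61 and 0.07 under salt with infusion. All infusion arrays lay above the matching arrays without infusion, with wild-type infusion array 3 the lowest. The log2 changes were 4.14, 2.82, 4.13 and 4.01 (SE 0.89, adjusted p = 0.00308, 0.0224, 0.00236 and 0.00368), and the wild-type salt-water call was lost without salt array 1 or 3 or salt-with-infusion array 1 or 3. Clec4e read -5.29, -4.62 and -4.73 in controls, -5.40, -5.73 and -6.76 on salt, -0.91, 0.31 and -4.48 under infusion and -2.18, -2.97 and -1.13 under salt with infusion in the wild type. Knockout levels of Clec4e were -6.35, -5.48 and -4.81 in controls, -6.20, -6.74 and -4.58 on salt, 0.09, -2.46 and -4.18 under infusion and -2.44, -2.69 and -1.84 under salt with infusion. The groups did not overlap in any of the 4 comparisons, although wild-type infusion array 3 exceeded the highest control by little. The fitted log2 differences were 3.18, 3.87, 3.36 and 3.52 (SE 1.02, adjusted p = 0.0281, 0.00821, 0.018 and 0.0175). Clec4e was not well above background in the wild-type salt group and in both knockout groups without infusion, while 1 of 3 wild-type control arrays had it. Against those 3 groups it was at least 5.79-fold, 5.19-fold and 4.38-fold higher. The wild-type plain-water call of Clec4e was lost without control array 1, 2 or 3 or infusion array 1 or 2, and the knockout calls without control array 1 or infusion array 1 on plain water and salt array 1 or 2 or salt-with-infusion array 3 on salt water.

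Msr1, the class A scavenger receptor that takes up modified lipoprotein, rose by 2.64, 2.17, 2.28 and 1.94 in the 4 comparisons. Its levels lay between -4.20 and -2.50 on the 12 arrays without infusion and between -2.66 and 0.30 on the 12 with it. Lgals3, galectin-3, a secreted lectin of phagocytes, rose by 1.91, 2.31, 2.43 and 2.10, and Fcgr1, the high-affinity Fc receptor for IgG, by 1.30, 1.35, 1.62 and 1.58. Msr1 and Lgals3 kept their calls in all 24 fits that left out 1 array. Cd14, the co-receptor for bacterial lipopolysaccharide, rose in the wild type on plain water (1.32 (SE 0.42, adjusted p = 0.0274)) and changed by 0.93, 1.04 and 0.57 in the other comparisons without a call. That call of Cd14 was lost without control array 1 or 2 or infusion array 1 or 2 (0.81 to 1.98 over the 6 fits). Fcgr1 lost its call in the wild type without control array 1 or infusion array 1 or 2 on plain water and without salt array 3 or salt-with-infusion array 1 or 3 on salt water. Clec7a, the beta-glucan receptor Dectin-1, was called in none of the 4, with changes of 1.23, 0.80, 0.53 and 0.24.

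Nos2, the inducible nitric oxide synthase that marks microbicidal macrophages, read -1.87, -1.89 and -1.69 in controls, -1.93, -1.85 and -2.07 on salt, -0.70, -0.54 and -1.36 under infusion and -1.49, -1.52 and -0.74 under salt with infusion in the wild type. Knockout levels of Nos2 were -2.45, -2.63 and -2.62 in controls, -2.88, -2.66 and -2.46 on salt, -2.03, -2.19 and -1.98 under infusion and -1.93, -1.76 and -1.60 under salt with infusion. Infusion arrays lay above those without infusion in both genotypes. Nos2 rose by 0.95, 0.70 and 0.90 in the wild type on plain and salt water and the knockout on salt water, and its change of 0.50 in the knockout on plain water was not called (adjusted p = 0.0661); the wild-type salt-water call was lost without salt array 3 or salt-with-infusion array 3. Cd86, a costimulatory ligand for T cells, read -1.32, -0.97 and -1.19 in controls, -1.16, -1.11 and -1.18 on salt, -0.45, 0.23 and -1.01 under infusion and -0.67, -0.84 and -0.81 under salt with infusion in the wild type. Knockout levels of Cd86 were -0.46, -0.77 and -0.48 in controls, -0.69, -0.56 and -0.73 on salt, -0.06, -0.01 and -0.66 under infusion and -0.63, -0.68 and -0.78 under salt with infusion. Its change was called in the wild type on plain water (0.75 (SE 0.22, adjusted p = 0.017)), with infusion array 3 among the controls, and the call was lost without control array 1 or infusion array 2. Nos2 and Arg1 are often set against each other as markers of opposed states, and both were called higher in 3 of the 4 comparisons. Arg1 passed the filter on dim probes only through infusion groups, so its calls are no support for a joint rise.

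Neutrophils share Clec4d, Clec4e and Arg1 with macrophages, and S100a9, one of their markers, was high on some of the same arrays. S100a9, an abundant neutrophil calcium-binding protein, read -1.45, -2.61 and -1.45 in controls, -2.64, 0.04 and -0.91 on salt, 2.85, 4.46 and -2.22 under infusion and -0.62, 1.16 and 0.58 under salt with infusion in the wild type. Knockout levels of S100a9 were -2.27, -2.59 and -3.01 in controls, -5.25, -5.10 and -5.11 on salt, 3.11, -1.84 and -0.64 under infusion and -2.29, -2.07 and -1.33 under salt with infusion. It was highest on wild-type infusion arrays 1 and 2 and on knockout infusion array 1, the arrays on which Arg1 and Clec4d were highest too. Of 9 neutrophil genes listed 5 were tested, and 1, S100a9, rose in the wild type on plain water. In the other 3 comparisons 0 were called by limma. Of all genes 12.2%, 16.3%, 14.3% and 13.3% were called higher in the 4 comparisons, so a count of 1 in 5 says little about neutrophil genes as a set. The list's mean level over those 5 genes ran from -1.87 to -0.70 in wild-type controls, -1.34 to -0.27 on salt, -1.53 to 2.46 under infusion and -0.55 to -0.21 under salt with infusion. In the knockout it ran from -1.83 to -1.60, -2.73 to -2.53, -1.27 to 0.83 and -1.91 to -1.55. Cxcr2, among those 5 genes, was well above background on no array without infusion. It passed the filter on dim probes only through the knockout infusion group, so its part in these means is no support. Ngp was well above background on 0 of 24 arrays, Ltf and Mmp8 on 2 each and Retnlg on 7. The neutrophils' part in the changes of Clec4d, Clec4e and Arg1 was not tested.

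**Figure D2:**
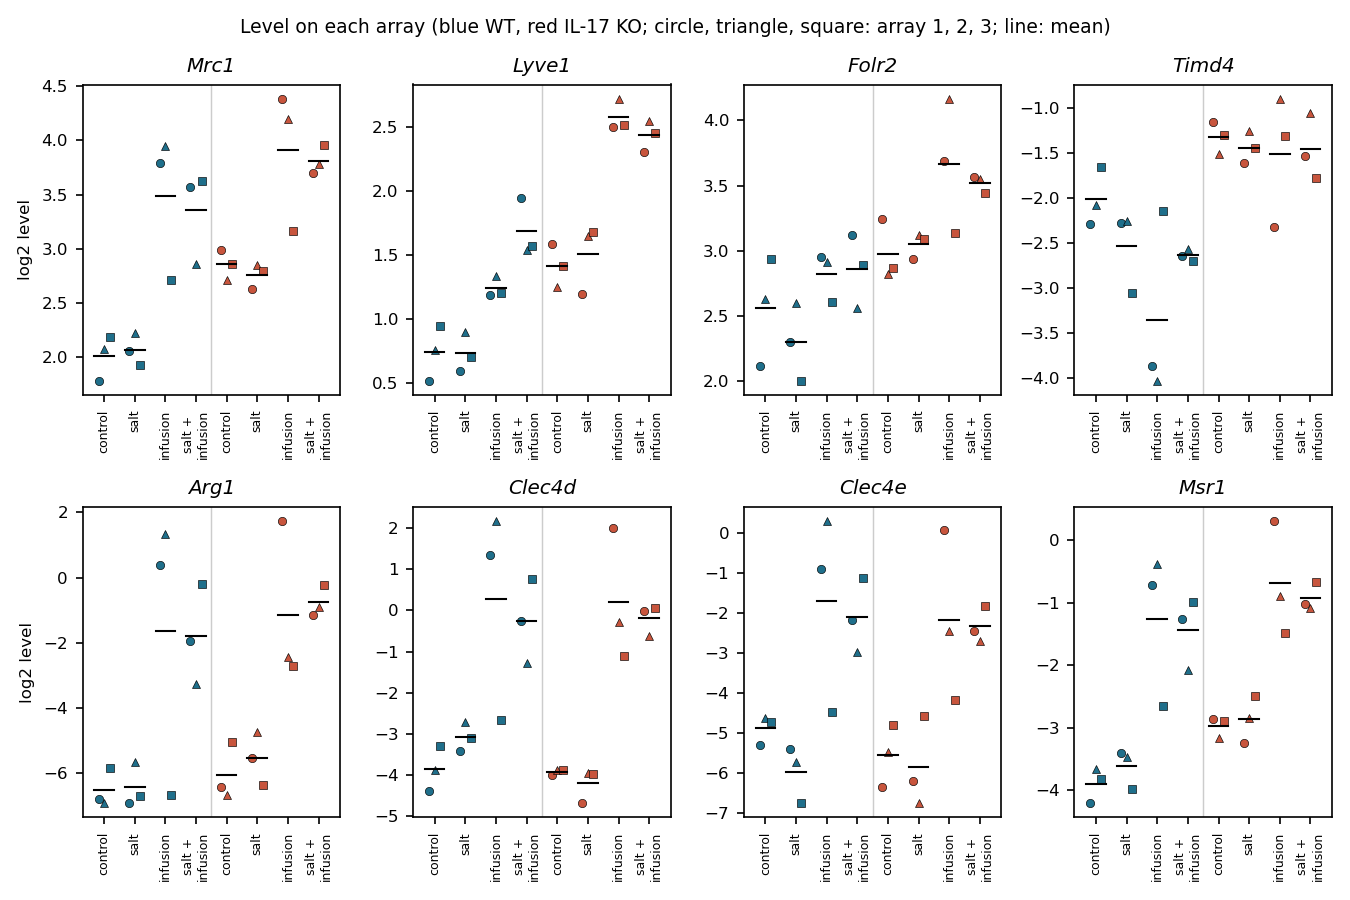
Log2 level on each of the 24 arrays for 4 resident-type genes (top) and 4 recruited or activated-type genes (bottom); blue is wild type, red IL-17 knockout, symbols are arrays 1 to 3 and lines are group means. Arg1 on wild-type infusion array 3 lies at -6.68 among the controls, while Timd4 is low on wild-type infusion arrays 1 and 2, at -3.87 and -4.03.

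The 5 resident-type genes did not move as a group. In the 4 comparisons 2, 2, 3 and 2 of them rose, 1 fell in the wild type on plain water, and their median log2 changes were 0.27, 0.56, 0.69 and 0.47. Mrc1, the mannose receptor CD206, read 1.78, 2.08 and 2.19 in controls, 2.06, 2.22 and 1.93 on salt, 3.79, 3.95 and 2.71 under infusion and 3.57, 2.86 and 3.62 under salt with infusion in the wild type. Knockout levels of Mrc1 were 2.99, 2.72 and 2.86 in controls, 2.63, 2.85 and 2.80 on salt, 4.38, 4.20 and 3.16 under infusion and 3.70, 3.78 and 3.96 under salt with infusion. Every infusion array lay above the matching arrays without infusion, with infusion array 3 lowest among the infusion-only arrays of both genotypes. Mrc1 rose by 1.47, 1.28, 1.06 and 1.05 (SE 0.30, adjusted p = 0.00213, 0.00397, 0.0125 and 0.0162). The knockout calls of Mrc1 were lost without infusion array 1 or 2 on plain water and without salt array 1 or salt-with-infusion array 3 on salt water. With slide as a fixed block the wild-type plain-water change was 1.06 (adjusted p = 0.245).

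Lyve1, the hyaluronan receptor of adventitial macrophages and of lymphatic endothelium, read 0.52, 0.76 and 0.94 in controls, 0.59, 0.90 and 0.71 on salt, 1.19, 1.33 and 1.21 under infusion and 1.95, 1.54 and 1.57 under salt with infusion in the wild type. Knockout levels of Lyve1 were 1.59, 1.25 and 1.42 in controls, 1.20, 1.65 and 1.68 on salt, 2.50, 2.72 and 2.52 under infusion and 2.31, 2.55 and 2.46 under salt with infusion. The infusion groups lay wholly above their counterparts in both genotypes, and infusion array 3 did not stand apart for this gene. Lyve1 rose by 0.50, 0.95, 1.16 and 0.93 (SE 0.15, adjusted p = 0.021, 0.00028, 7.3e-05 and 0.000388); the wild-type plain-water call was lost without control array 1 or infusion array 2. Of the lymphatic endothelial markers, Prox1, the factor that defines that lineage, and Reln were well above background on 0 of 24 arrays, and Flt4 on 2. Pdpn, which lymphatic endothelium shares with activated macrophages and fibroblasts, rose by 1.20, 1.08 and 1.05 and changed by 0.83 without a call in the knockout on salt water (adjusted p = 0.0596).

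Folr2, the folate receptor beta, read 2.11, 2.63 and 2.93 in controls, 2.30, 2.60 and 2.0 on salt, 2.95, 2.92 and 2.61 under infusion and 3.12, 2.56 and 2.89 under salt with infusion in the wild type. Knockout levels of Folr2 were 3.24, 2.82 and 2.87 in controls, 2.93, 3.12 and 3.09 on salt, 3.69, 4.17 and 3.14 under infusion and 3.57, 3.55 and 3.45 under salt with infusion. Its groups overlapped except in the knockout on salt water. Folr2 was called higher in the knockout on plain water alone (0.69 (SE 0.24, adjusted p = 0.0339)), a call lost without control array 2 or 3 or infusion array 1 or 2, and changed by 0.27, 0.56 and 0.47 elsewhere.

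Timd4, the phosphatidylserine receptor TIM-4 of self-renewing resident macrophages, read -2.28, -2.08 and -1.65 in controls, -2.27, -2.26 and -3.05 on salt, -3.87, -4.03 and -2.15 under infusion and -2.64, -2.57 and -2.69 under salt with infusion in the wild type. Knockout levels of Timd4 were -1.15, -1.51 and -1.30 in controls, -1.61, -1.25 and -1.45 on salt, -2.32, -0.89 and -1.31 under infusion and -1.53, -1.05 and -1.78 under salt with infusion. Wild-type infusion arrays 1 and 2 lay below all others, and infusion array 3 lay among the controls. Timd4 fell in the wild type on plain water (-1.34 (SE 0.40, adjusted p = 0.0194)) and changed by -0.11, -0.19 and -0.02 in the other comparisons (adjusted p = 0.857, 0.771 and 0.981). Without infusion array 3 of both genotypes its wild-type plain-water change was -1.94, and the call was lost without control array 3 or infusion array 1 or 2 (-1.94 to -1.0 over the 6 fits). The difference of the 2 genotypes' changes on plain water was 1.15 (unadjusted p = 0.0551, adjusted p = 0.772).

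Cd163, the haemoglobin scavenger receptor, read -3.80, 0.22 and -3.38 in controls, -2.89, -2.61 and -3.37 on salt, -3.34, -3.0 and -3.29 under infusion and -2.65, -3.13 and -3.05 under salt with infusion in the wild type. Knockout levels of Cd163 were -2.96, -2.90 and -2.95 in controls, -2.68, -2.74 and -2.28 on salt, -2.44, -1.89 and -2.90 under infusion and -2.97, -2.45 and -2.48 under salt with infusion. Wild-type control array 2, at 0.22, stood above all other wild-type arrays, the next of which was salt array 2 at -2.61. Cd163 was called in none of the 4 comparisons, with changes of -0.89, 0.01, 0.53 and -0.07. Without wild-type control array 2 the plain-water change in the wild type turned from -0.89 to 0.38 (adjusted p = 0.35).

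The lineage genes rose broadly: of 10 genes 9, 7, 8 and 5 were called higher and 0 lower, with medians of 1.29, 1.15 (1.11 with Spi1 at its lower bound), 1.27 and 0.89. Itgb2, the beta-2 integrin CD18 common to leukocytes, read -1.57, -1.25 and -1.22 in controls, -1.29, -1.37 and -1.36 on salt, 0.63, 1.06 and -0.52 under infusion and 0.39, -0.10 and 0.42 under salt with infusion in the wild type. Knockout levels of Itgb2 were -0.59, -1.15 and -0.90 in controls, -1.19, -0.95 and -0.93 on salt, 1.66, 1.18 and 0.09 under infusion and 1.07, 0.79 and 0.80 under salt with infusion. All infusion arrays lay above those without infusion, with array 3 lowest among the infusion-only arrays. The changes of Itgb2 were 1.74, 1.58, 1.86 and 1.91 (SE 0.34, adjusted p = 0.00162, 0.00236, 0.000789 and 0.000783). Cd68, the lysosomal membrane glycoprotein used to stain macrophages, read 1.08, 1.64 and 1.82 in controls, 1.46, 1.61 and 1.26 on salt, 3.48, 3.34 and 2.47 under infusion and 3.25, 2.62 and 3.16 under salt with infusion in the wild type. Knockout levels of Cd68 were 2.26, 2.04 and 2.25 in controls, 1.95, 2.15 and 2.28 on salt, 4.66, 4.58 and 3.29 under infusion and 4.19, 4.02 and 4.07 under salt with infusion. No group overlapped its counterpart. Cd68 rose by 1.58, 1.56, 1.99 and 1.97 (SE 0.31, adjusted p = 0.00148, 0.00121, 0.000227 and 0.000245), and Itgb2 and Cd68 kept their calls in all 24 fits that left out 1 array.

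Fcer1g, the gamma chain through which Fc receptors and the lectins above signal, read 2.27, 2.71 and 3.10 in controls, 2.41, 2.81 and 2.41 on salt, 4.56, 4.93 and 3.28 under infusion and 4.30, 3.81 and 4.26 under salt with infusion in the wild type. Knockout levels of Fcer1g were 3.20, 2.84 and 3.07 in controls, 2.92, 3.07 and 3.13 on salt, 5.18, 4.93 and 3.59 under infusion and 4.41, 4.19 and 4.46 under salt with infusion. Its groups were separate in all 4 comparisons, although wild-type infusion array 3 lay close to control array 3. Fcer1g rose by 1.56, 1.58, 1.53 and 1.31 (SE 0.37, adjusted p = 0.00555, 0.00411, 0.00496 and 0.0153), and the knockout salt-water call was lost without salt array 1 or salt-with-infusion array 3. Tyrobp, the adaptor DAP12 that pairs with Trem2, rose by 1.34, 1.36, 1.44 and 1.17; the call was lost without control array 1 or infusion array 1 or 2 in the wild type on plain water, without infusion array 1 in the knockout on plain water and in 5 of 6 fits without 1 array in the knockout on salt water (all but salt array 3). Fcgr3, a low-affinity Fc receptor, rose by 1.20, 0.98 and 1.29 and changed by 0.76 without a call in the knockout on salt water. Lyz1 and Lyz2 are near-identical lysozyme genes; their probes share no run longer than 6 bases, and Lyz1 rose by 1.25, 1.08, 0.76 and 0.92 while Lyz2 changed by 1.11, 1.13, 1.20 and 0.85, the last without a call. Spi1, the gene of PU.1, was dim. It rose by 1.37 in the wild type and 1.24 in the knockout on plain water, calls lost without control array 1 or 3 or infusion array 1 or 2 in the wild type and without control array 2 or 3 or infusion array 1 or 2 in the knockout. On salt water it was not called, with at least 1.58-fold in the wild type, whose salt arrays were not well above background, and 0.38 in the knockout.

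Csf1r, the receptor for the growth factor CSF1 on which macrophage survival depends, read 4.35, 4.89 and 4.91 in controls, 4.84, 4.84 and 4.55 on salt, 5.53, 5.67 and 4.85 under infusion and 5.33, 4.79 and 5.25 under salt with infusion in the wild type. Knockout levels of Csf1r were 5.55, 5.29 and 5.37 in controls, 5.32, 5.44 and 5.43 on salt, 5.95, 6.11 and 5.22 under infusion and 5.63, 5.79 and 5.61 under salt with infusion. Csf1r was bright on all arrays, and its wild-type infusion array 3 overlapped the controls. Its changes were 0.63, 0.38, 0.35 and 0.28, called in the wild type on plain water alone (adjusted p = 0.0473), and the call was lost without control array 1 or 2 or infusion array 1 or 2. A second Csf1r probe changed by 0.39, 0.48, 0.52 and -0.04, with no call.

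Itgam, the alpha-M integrin CD11b, shows how the choice of probe sets a result. The 3 Itgam probes begin with the following 30 bases, 5′ to 3′, where capitals mark a run of CA repeats:
Itgam probe at transcript base 4431: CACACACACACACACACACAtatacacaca
Itgam probe at transcript base 3410: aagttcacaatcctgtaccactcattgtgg
Itgam probe at transcript base 270: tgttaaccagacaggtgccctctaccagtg
The first probe, the brightest and so the one used (mm9 chr7:135261755-135261814), opens with a 20-base CA run. It shares a run of at least 16 bases with 117 other probes of the array, where a match to the reverse complement also counts. Each of the other 33 probes used for members shares one with at most 2, and 29 of the 34 with none. On the whole array 35 of 55681 probes (0.0629%) hold a CA run of at least 16 bases in their own letters, reverse complements not counted.

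Itgam at this probe read 6.97, 6.75 and 7.27 in controls, 7.0, 6.98 and 7.12 on salt, 6.83, 7.12 and 7.38 under infusion and 7.03, 7.13 and 6.75 under salt with infusion in the wild type. Knockout levels at this probe were 5.77, 5.80 and 5.74 in controls, 5.64, 5.93 and 5.89 on salt, 5.59, 5.50 and 6.13 under infusion and 5.69, 6.02 and 5.99 under salt with infusion. The wild-type arrays were all above the knockout arrays and infusion arrays overlapped those without it in both genotypes, with changes of 0.11, -0.06, -0.03 and 0.08 and no call. The second probe (transcript base 3410) read -3.10, -2.63 and -2.47 in controls, -2.69, -2.34 and -2.37 on salt, -1.07, -0.62 and -1.83 under infusion and -1.39, -1.62 and -1.32 under salt with infusion in the wild type. Knockout levels at the second probe were -1.87, -2.57 and -2.57 in controls, -2.71, -2.72 and -2.81 on salt, -0.29, -1.05 and -1.81 under infusion and -1.31, -1.0 and -1.10 under salt with infusion. Here all infusion arrays lay above the matching arrays without infusion, with knockout control array 1 and infusion array 3 close together. The second probe rose by 1.56, 1.02, 1.29 and 1.61 (adjusted p = 0.00197, 0.0193, 0.00522 and 0.00152).

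**Figure D3:**
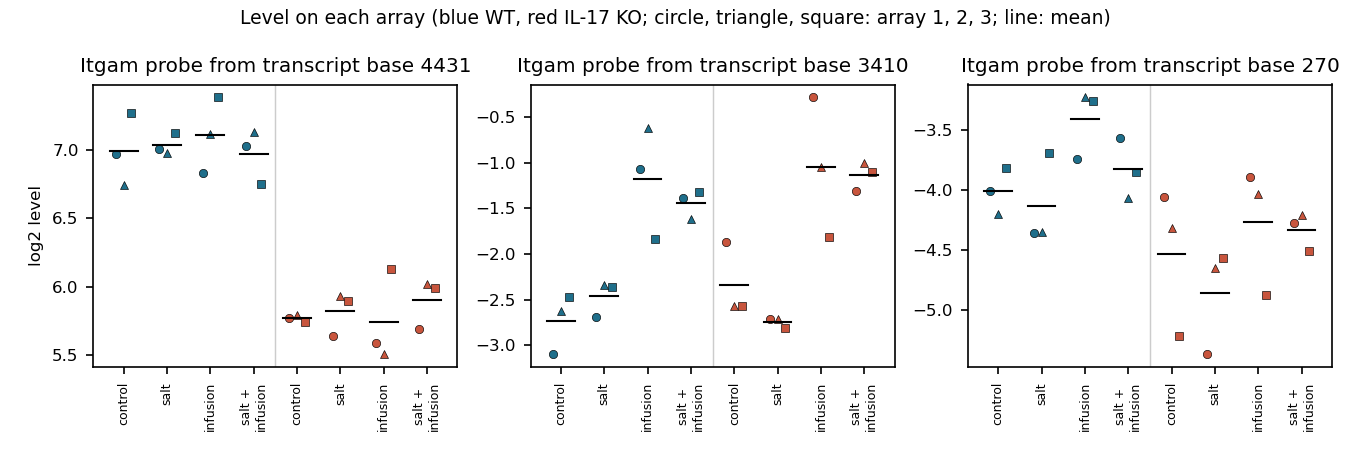
Log2 level of the 3 Itgam probes on each array, in panels titled by the probe's start in the transcript; blue is wild type, red IL-17 knockout, symbols are arrays 1 to 3 and lines are group means. The probe at base 4431, used by the brightest-probe rule, is flat across infusion and lower in the knockout, while the probe at base 3410 rises under infusion by 1.02 to 1.61.

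The 3 chains of complement C1q, which macrophages make to tag dying cells, rose together: 3 of 3 were called higher in all 4 comparisons, with medians of 0.77, 0.80, 1.04 and 0.82. C1qa read 2.42, 3.0 and 2.97 in controls, 2.72, 3.04 and 2.50 on salt, 3.81, 3.88 and 3.09 under infusion and 3.74, 3.18 and 3.77 under salt with infusion in the wild type. Knockout levels of C1qa were 2.97, 2.84 and 3.14 in controls, 3.04, 3.26 and 3.29 on salt, 4.34, 4.64 and 3.63 under infusion and 4.18, 4.06 and 4.06 under salt with infusion. C1qa groups were separate in all 4 comparisons, and it rose by 0.80, 0.81, 1.22 and 0.90 (SE 0.25). C1qb read 2.21, 2.81 and 2.92 in controls, 2.49, 2.84 and 2.36 on salt, 3.74, 3.61 and 2.91 under infusion and 3.51, 3.01 and 3.57 under salt with infusion in the wild type. Knockout levels of C1qb were 3.01, 2.53 and 2.74 in controls, 2.78, 2.86 and 2.83 on salt, 3.96, 4.25 and 3.18 under infusion and 3.70, 3.61 and 3.60 under salt with infusion. Wild-type infusion array 3 fell just below control array 3, the one overlap for C1qb, and the changes were 0.77, 0.80, 1.04 and 0.82. C1qc read 2.82, 3.34 and 3.62 in controls, 3.18, 3.44 and 3.04 on salt, 4.14, 4.22 and 3.71 under infusion and 4.02, 3.63 and 3.99 under salt with infusion in the wild type. Knockout levels of C1qc were 3.90, 3.44 and 3.63 in controls, 3.60, 3.71 and 3.73 on salt, 4.68, 4.96 and 3.97 under infusion and 4.50, 4.42 and 4.31 under salt with infusion. Its groups were separate, and it rose by 0.77, 0.66, 0.88 and 0.73. The adjusted p-values of the chains lay between 0.00159 and 0.0348. In the knockout on salt water the calls of C1qb and C1qc were lost in each of the 6 fits without 1 array, and in the wild type on salt water all 3 calls were lost in 4 of 6 (without salt array 1 or 3 or salt-with-infusion array 1 or 3). On plain water the wild-type calls of C1qa and C1qc were lost without control array 1 or infusion array 1 or 2, and that of C1qb also without control array 2.

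Among the phagocytic and lysosomal genes 2 of 4 rose in every comparison. Trem2, the receptor of lipid-laden and tissue-clearing macrophages, read 0.34, 0.67 and 1.08 in controls, 0.39, 0.52 and 0.35 on salt, 3.26, 3.41 and 1.62 under infusion and 2.87, 2.21 and 2.82 under salt with infusion in the wild type. Knockout levels of Trem2 were 1.36, 1.19 and 1.47 in controls, 1.21, 1.42 and 1.27 on salt, 3.94, 3.75 and 2.08 under infusion and 3.27, 3.06 and 3.28 under salt with infusion. Its infusion and non-infusion groups did not overlap. Trem2 rose by 2.07, 2.21, 1.92 and 1.90 (SE 0.42, adjusted p = 0.00197, 0.000948, 0.00248 and 0.0034) and kept its call in all 24 fits that left out 1 array. Ctss, the protease cathepsin S that cuts elastin, read 2.21, 2.69 and 3.13 in controls, 2.37, 2.78 and 2.48 on salt, 4.87, 5.11 and 3.12 under infusion and 4.18, 3.84 and 4.41 under salt with infusion in the wild type. Knockout levels of Ctss were 3.22, 2.81 and 2.95 in controls, 2.91, 3.03 and 3.19 on salt, 5.31, 5.02 and 3.40 under infusion and 4.66, 4.56 and 4.48 under salt with infusion. Only on wild-type infusion array 3 did it reach down to the highest control. Ctss rose by 1.69, 1.60, 1.59 and 1.52 (SE 0.44), and its plain-water calls were lost without control array 1 or infusion array 2 in the wild type and infusion array 1 or 2 in the knockout. Ctsb, the broadly expressed cathepsin B, was bright and changed by no more than 0.19, with no call.

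Gpnmb, a glycoprotein of lysosome-rich macrophages that is also made by pigment cells, moved the other way. Gpnmb read -2.97, -1.97 and -2.48 in controls, -1.78, -2.24 and -2.30 on salt, -4.66, -4.51 and -2.60 under infusion and -4.23, -3.85 and -4.32 under salt with infusion in the wild type. Knockout levels of Gpnmb were -0.55, -0.50 and -0.37 in controls, -0.09, -0.05 and 0.09 on salt, -3.49, -2.79 and -0.69 under infusion and -3.03, -1.98 and -2.37 under salt with infusion. Infusion arrays were low in both genotypes except for infusion array 3, which lay among the controls in the wild type and just below them in the knockout. Gpnmb changed by -1.45 in the wild type on plain water without a call (adjusted p = 0.0587) and was called lower elsewhere, with changes of -2.03, -1.85 and -2.44 (adjusted p = 0.00976, 0.0163 and 0.00396). Without infusion array 3 of both genotypes the plain-water changes were -2.11 (adjusted p = 4.05e-05) and -2.67 (adjusted p = 3.95e-06). The knockout plain-water call was lost without infusion array 1 or 2.

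Some markers of melanocytes also fell under infusion. Mlana, a melanosome protein, changed by -2.57, -2.18, -3.14 and -3.05, and Mitf, the pigment-cell transcription factor that also acts in macrophages, by -0.95, -0.96, -0.93 and -0.94, all called. Of 6 melanocyte genes 5 were tested, and 2, 2, 2 and 3 fell in the 4 comparisons while 0 rose. Of all genes 13.7%, 16.6%, 16.4% and 12% were called lower. Mlana and Mitf account for every call except in the knockout on salt water, where another gene was called too. Pmel, Dct and Tyr were otherwise not called, and in the wild type not all of them fell. Pmel passed the filter on dim probes only through infusion groups. The mean level of those 5 ran from -2.96 to -2.66 in wild-type controls and -3.07 to -2.78 on salt, against -3.94 to -3.13 under infusion and -3.85 to -3.07 under salt with infusion. In the knockout it ran from -2.58 to -1.90 and -2.07 to -1.32, against -3.42 to -2.97 and -3.37 to -3.05. The list and Gpnmb did not move alike on every array. On knockout infusion array 3 the list's mean was -2.99, near the -2.97 of array 2, while Gpnmb read -0.69 against -2.79. On wild-type salt-with-infusion arrays 1 and 2 the list's means, -3.07 and -3.08, lay close to that of salt array 3, while Gpnmb was low on both. Tyrp1 was well above background on 1 of 24 arrays. This list was added after the values of Gpnmb were seen, and the pigment cells' part in the fall of Gpnmb was not tested.

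**Figure D4:**
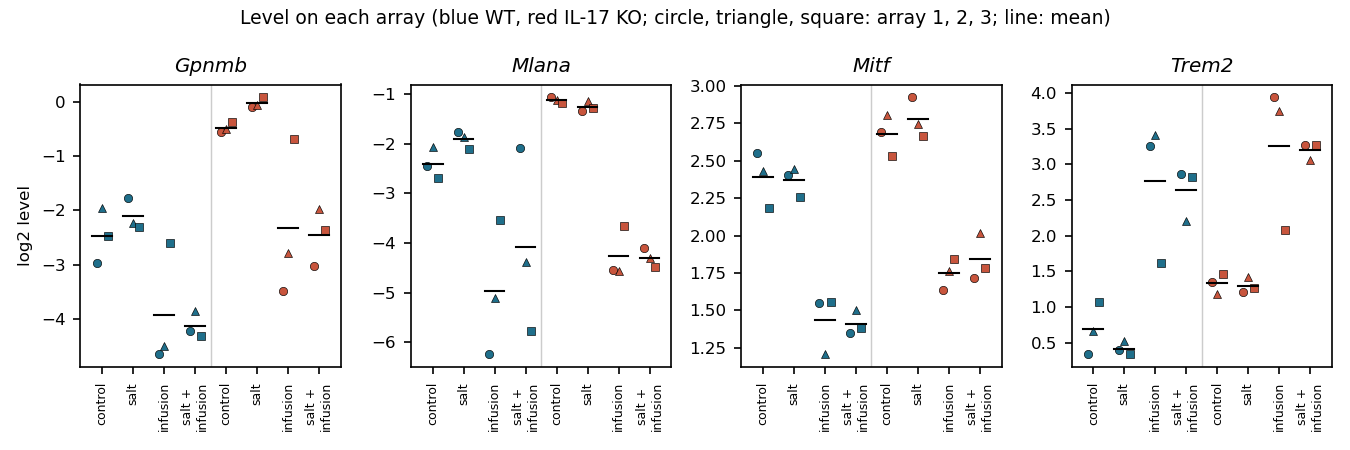
Log2 level on each array for Gpnmb, the pigment-cell genes Mlana and Mitf, and Trem2; blue is wild type, red IL-17 knockout, symbols are arrays 1 to 3 and lines are group means. Gpnmb, Mlana and Mitf are lower under infusion in both genotypes, while Trem2 is higher, and Gpnmb is higher in knockout controls than in wild-type controls.

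The 2 genes of antigen presentation were not called in any of the 4 infusion comparisons, and their values depended on single arrays and on slide. Cd74, the invariant chain, changed by 0.29, -0.01, -0.36 and -0.11 and H2-Ab1, a class II chain, by 0.60, 0.36, 0.02 and 0.20. Both were lowest on infusion array 3 of the knockout, at 2.64 and 2.91, where the other knockout infusion arrays read 4.85 and 4.67 for Cd74 and 5.66 and 5.50 for H2-Ab1. Without infusion array 3 of both genotypes H2-Ab1 rose on plain water by 1.06 in the wild type (adjusted p = 0.00385) and 0.91 in the knockout (adjusted p = 0.00941), and Cd74 changed by 0.60 and 0.35 without a call. H2-Ab1 rose in the knockout with slide as a fixed block, by 0.91 on plain water (adjusted p = 0.0499) and 2.87 on salt water. With that block Cd74 changed by 0.35 and rose by 2.01 (adjusted p = 0.00418). These values are not separate from those without infusion array 3. That array is the only one of its group on the slide of the knockout salt-with-infusion arrays, so the block rests on its low readings. Dendritic cells also carry class II molecules. Of 6 dendritic genes 4 were tested, and Cd209a rose in the wild type on plain water (2.57) and Ccr7 in the knockout on plain water (1.77). The list's median changes were 0.46, -0.27, 0.81 and 0.40 in the 4 comparisons. Of 5 B cell genes 4 were tested, and 0, 3, 0 and 0 fell while 0 rose, with medians of -0.34, -1.54, -0.40 and -0.49. Of all genes 12.2%, 16.3%, 14.3% and 13.3% were called higher and 13.7%, 16.6%, 16.4% and 12% lower in that order. The part of either cell type in the values of Cd74 and H2-Ab1 was not tested.

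Related macrophage genes outside the 34 also rose more often than they fell. Of 30 related macrophage genes 29 were tested. In the wild type 16 rose and 4 fell on plain water, and 13 and 2 on salt water. In the knockout 14 rose and 2 fell on plain water, and 11 and 4 on salt water. Of all genes 12.2%, 16.3%, 14.3% and 13.3% were called higher and 13.7%, 16.6%, 16.4% and 12% lower in that order. Spp1 and Chil3 passed the filter on dim probes only through infusion groups, on whose arrays they are high. Their place in these counts is therefore no support. Vsig4, a complement receptor usually counted with resident macrophages, rose by 2.48, 3.32, 2.83 and 2.75 (adjusted p = 8.81e-05, 1.14e-05, 3.22e-05 and 1.54e-05). It read -1.67, -1.28 and -0.60 in controls, -1.55, -1.36 and -2.09 on salt, 1.24, 1.76 and 0.88 under infusion and 1.80, 1.78 and 1.39 under salt with infusion in the wild type. Knockout levels of Vsig4 were -0.26, -0.68 and -0.46 in controls, -0.33, -0.18 and -0.26 on salt, 2.54, 3.01 and 1.53 under infusion and 2.53, 2.54 and 2.40 under salt with infusion. The infusion arrays of Vsig4, array 3 included, were all above those without infusion. Spp1, osteopontin, a matrix protein of inflammatory macrophages, changed by 6.52, 5.52, 6.07 and 5.37. In 3 of the groups without infusion no array had it well above background, so its increase was at least 63.9-fold in the wild type on plain water, at least 40.4-fold on salt water and at least 44.7-fold in the knockout on plain water. Chil3, a chitinase-like protein, rose by 4.13 and 5.20 in the wild type, where 1 of 3 arrays without infusion had it well above background, and by at least 21.1-fold and 25.0-fold in the knockout, where none had. Siglec1, sialoadhesin, rose by 1.07, 1.48, 1.71 and 2.24, and Adgre1, which encodes the F4/80 antigen, by 1.35, 1.12, 0.89 and 1.0. Ms4a6c, a membrane protein of monocytes, rose by 2.05, 1.65, 2.15 and 1.53. Fcna, ficolin A, changed by 0.53, 1.05, 1.54 and 1.36, called in all but the wild type on plain water. Apoe, the lipid carrier apolipoprotein E, was called lower in all 4, with changes of -0.56, -0.80, -0.63 and -0.96.

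No member was called for salt. During infusion 0 members were called in either genotype, where 0% of all genes were called in the wild type and 0.00425% in the knockout, and 1354 and 1067 genes had an unadjusted p under 0.05. Among members 1 and 0 had one. Without infusion 0 members were called in either genotype, where 0% of all genes were called, with 499 and 714 genes and 0 members at an unadjusted p under 0.05. The members' median change with salt during infusion was -0.15 in the wild type and -0.14 in the knockout, and 29 of 34 lay below 0 in each; without infusion the medians were -0.03 and -0.01. The median 95% interval during infusion ran from -0.91 to 0.57 in the wild type and -0.93 to 0.56 in the knockout, which leaves room for changes of that size in a single gene. Those intervals do not show that salt had no effect.

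Lyve1 was the member at an unadjusted p under 0.05. Under infusion it read 1.19, 1.33 and 1.21 on plain and 1.95, 1.54 and 1.57 on salt water in the wild type, groups that did not overlap. In the knockout it read 2.50, 2.72 and 2.52 and 2.31, 2.55 and 2.46, groups that did. The salt change was 0.44 in the wild type (95% interval 0.12 to 0.76, unadjusted p = 0.00945, adjusted p = 0.807) and -0.14 in the knockout (95% interval -0.46 to 0.18). The wild-type value was 0.32 with slide as a fixed block (unadjusted p = 0.157) and, as a random block, 0.38 (unadjusted p = 0.0562). The difference between the salt changes of the genotypes, without a slide block, was -0.58 (unadjusted p = 0.014, adjusted p = 0.694). Arg1 changed with salt by -0.15 (95% interval -3.25 to 2.95) in the wild type and 0.38 (-2.72 to 3.47) in the knockout, and Mrc1 by -0.13 (-0.76 to 0.50) and -0.10 (-0.73 to 0.52).

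The salt comparison depends on infusion array 3 of both genotypes and on slide. Without those arrays the median change with salt during infusion was -0.57 in the wild type and -0.53 in the knockout, and 0 and 3 members were called, all lower: Tyrobp (-0.81), Cd86 (-0.66) and H2-Ab1 (-1.09), with 2 and 393 genes called in all. With slide as a fixed block the medians were 0.07 and 0.57, and 0 members were called in either genotype, with 9 and 271 genes called in all. The sign of the members' median thus turned with slide as a fixed block in both genotypes. With slide as a random block it turned in the knockout alone (0.22), and the wild-type median was -0.02. The fixed block sets wild-type salt-with-infusion array 3 alone against the infusion arrays. In the knockout it sets the salt-with-infusion arrays against infusion array 3 alone. The arrays of those slides by themselves gave the same medians, 0.07 and 0.57. In the knockout, slide and infusion array 3 thus cannot be told apart here.

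**Figure D5:**
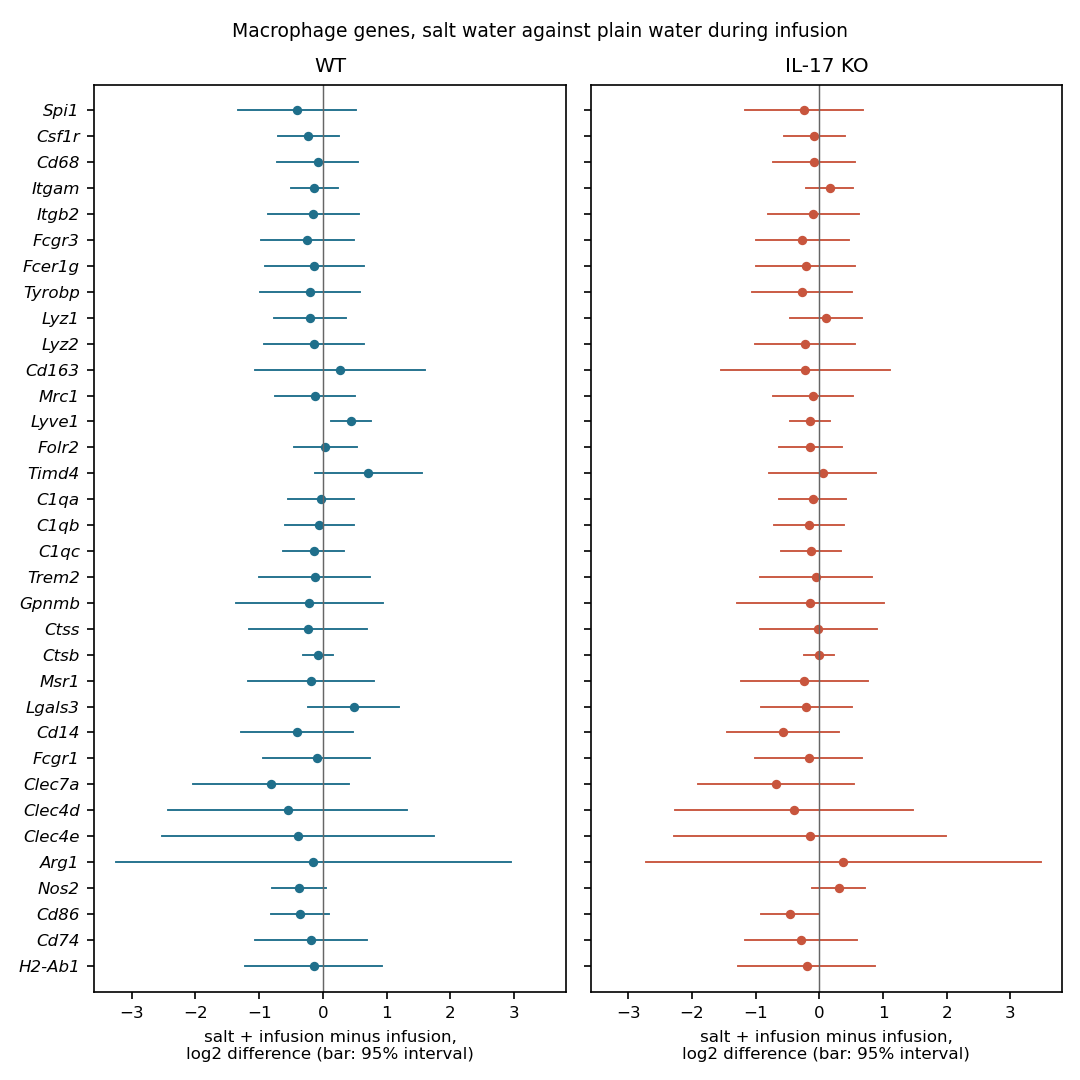
Log2 difference between salt water with infusion and plain water with infusion for the 34 genes in the wild type (left) and the IL-17 knockout (right); bars are 95% intervals. No gene was called; the interval of Lyve1 in the wild type lies above 0, and the intervals of Arg1, Clec4d and Clec4e are the widest.

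No member's response to infusion or salt differed between the genotypes past the threshold, by limma's test of the difference itself. For infusion on plain water 0 members were called (0% of all genes, 1532 at an unadjusted p under 0.05), for infusion on salt water 0 (0.0596% of all genes, 0.0511% higher and 0.00851% lower, with 2118 at such a p), and for salt during infusion 0 (0%, 1641). At an unadjusted p under 0.05 there were 1, 0 and 2 members. Lyve1 was the first, with a difference of 0.66 (95% interval 0.21 to 1.11, unadjusted p = 0.00667, adjusted p = 0.582) and a larger rise in the knockout on plain water. The others were Lyve1 and Nos2 for salt during infusion, where Nos2 differed by 0.68 (adjusted p = 0.698). With slide as a fixed block 4 members were called for the difference on salt water, and 1968 genes in all. The members were Cd74 (1.90), H2-Ab1 (2.41), Cd68 (1.81) and Gpnmb (-2.96). In that fit the knockout slides are joined through infusion array 3 alone. These 4 calls therefore depend on that array, which lay apart from knockout infusion arrays 1 and 2 for each of these genes.

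In controls the genotypes differed in 7 members, 5 higher and 2 lower in the knockout, where 37.2% of all genes were called (14.4% higher and 22.7% lower), so the share of members is below that of all genes. Gpnmb was higher by 2.0 (SE 0.55, adjusted p = 0.00826), Mrc1 by 0.84 (adjusted p = 0.0345), Csf1r by 0.69 (0.0236), Lyve1 by 0.68 (0.00196) and Cd86 by 0.59 (0.0405). Nos2 was lower (-0.75 (SE 0.20, adjusted p = 0.00699)). Itgam was lower at its brightest probe (-1.22 (SE 0.18, adjusted p = 3.16e-05)), but its second probe changed by 0.40 (adjusted p = 0.338), so the direction turned with the probe. The groups of each of these genes did not overlap. The call of Mrc1 was lost without any 1 of the 6 control arrays, that of Csf1r without knockout control array 1 or wild-type control array 1 and that of Cd86 without knockout control array 1 or 3 or wild-type control array 1 or 3. Since all wild-type controls lay on a different slide from all knockout controls, genotype and slide cannot be told apart here, and with slide as a random block 2 members were called.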

How the data were processed

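Per the labels' protocols, total RNA went through low-input amplification with Cy3 labelling and onto Agilent arrays of 1 colour. The tissue is given as aorta, although the extraction text mentions cells. The deposited value of a spot is an intensity, the processed signal that the scanner software corrects for background and spatial trend, per the file headers. Its version is Agilent Feature Extraction 10.7.1.1 in those headers but 9.5.1.1 in the submitters' processing notes. The authors' own processed values, intensity on a linear scale with the same sorted values in every column, were used as an alternative.

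Control spots and 2910 outlier spots were left out, spots of a probe were averaged, and log2 signal minus the array's 75th percentile was used. A probe was kept if all 3 arrays of some group had it well above background and no group had more than 1 array without a usable spot (a dim spot is usable) (33374 of 55681). Genes were named by accession through RefSeq (GRCm38.p6, 27235 probes) or else by the file's name; probe coordinates are on mm9. Where no array of a group had the probe well above background, a fold is a lower bound: the bright group's mean against, on each array of the dim group, the higher of the probe's own value and the lowest signal well above background.

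Groups came from the labels; array numbers in the wild-type salt group follow the source names, since the titles number them differently. One model over 24 arrays with 8 group means was fitted (limma 3.58.1, R 4.3.3; Python 3.11.15 for sequences and plots), two-sided, with Benjamini-Hochberg adjustment. Every array is described for the resident-type genes, for up to 3 called genes of largest change in each other role in the first infusion comparison, and for members called in a salt, genotype or difference comparison; of related genes, up to 4 of smallest p in each infusion comparison are named. S100a9, Pdpn, Cd209a, Ccr7 and the melanocyte genes were named after their values were seen. Replicate numbers did not pair arrays: deviations of same-numbered arrays correlated at -0.45 to 0.45. The fit was tested on simulated arrays. Members and lists were chosen with earlier results of these data known. Slide was read from the file headers.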

Additional observations from a re-analysis of the deposited data

Results flagged for a closer look

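A signal appeared in data that the brightest-probe rule leaves out. The second Itgam probe, at transcript base 3410, rose under infusion by 1.56 in the wild type on plain water, 1.02 in the wild type on salt water, 1.29 in the knockout on plain water and 1.61 in the knockout on salt water, above the arrays without infusion in each case. The brightest Itgam probe, which stands for the gene, changed by 0.11, -0.06, -0.03 and 0.08 without a call. No other member changed its call in all 4 comparisons when its second probe was used; which Itgam probe follows the transcript was not tested.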

How the results depend on the processing

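Of 98 called values of single members, 1606 values were recomputed under other settings; 1308 kept direction and call, 297 kept direction and lost the call, and 1 reversed, Itgam in controls between genotypes, which was 0.40 at its second probe. For the members called in infusion in the wild type on plain water (26 in the report), the count was 0 with slide as a fixed block, 1 with slide as a random block and 3 when the fit held the compared groups alone; for infusion in the knockout on plain water (23) it was 8 with those groups alone. For salt during infusion in the knockout (0) it was 3 without infusion array 3 of both genotypes, and for the difference of infusion on salt water between genotypes (0) it was 4 with slide as a fixed block. For the genotypes in controls (7) it was 2 with slide as a random block, 14 with those groups alone and 14 without infusion array 3 of both genotypes; slide as a fixed block could not be fitted there. The replicate number as a block gave 26, 23, 23 and 20 members in the 4 infusion comparisons, 7 for genotype in controls and 0 elsewhere.

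Over all genes, slide as a fixed block gave 261, 271, 9, 5, 46, 1968 and 42 calls for infusion in the wild type on plain water, salt during infusion in the knockout and in the wild type, salt alone in the wild type and the 3 differences, where the report's counts were 6086, 1, 0, 0, 0, 14 and 0. Leaving out 1 array at a time gave 10 to 29, 13 to 25, 12 to 26 and 10 to 17 members in the 4 infusion comparisons, 4 to 6 for genotype in controls and 0 elsewhere. Of 18 members called in all 4 infusion comparisons, 5 (Cd68, Itgb2, Trem2, Msr1 and Lgals3) kept every call. With 3 arrays a group and no slide holding both genotypes, the arrays' number and placement limit what can be called. Slide as a fixed block rests on infusion array 3 in the knockout and on salt-with-infusion array 3 in the wild type. The second-probe setting, the setting without infusion array 3 of both genotypes and the arrays of a slide holding 1 array of one group and 3 of the other were chosen after seeing the data; the last gave values for salt during infusion only.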
